A study of Rattus norvegicus with 12 samples.

Results

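The genes described here are 45 genes of the replication origin, the replication fork and the supply of deoxynucleotides, taken by name, with the Mcm helicase subunits left out. Of these 45 genes, 39 had a probe on the Illumina RatRef-12 Expression BeadChip, an array on which beads carry gene probes, and 6 had none under their symbol (Orc3, Cdc45, Rrm1, Tk1, Dut and Chaf1a). The 39 genes were on 40 rows of the 22505 in the value table, since Pola1 had a second probe. A filter on mean level kept 38 of those rows, from 37 genes, among 15753 rows kept in all. Cdc7, the kinase that fires origins, and Rpa1, the large subunit of the single-strand binding protein, were dim in every liver (0.07 to 0.14 and 0.08 to 0.20) and were not tested.

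Livers came from 12 male Wistar rat pups culled 1 day after birth, with 4 livers per group and 3 groups. The dams had eaten a control diet (C), a diet low in protein (MLP) or that low protein diet with added folic acid (MLP-F) while pregnant. All 3 groups were of the same strain, sex and age, and all 3 diets held folate, with none of the control dams given the added amount. Per the study's methods each diet was represented by a single litter, so diet and litter cannot be told apart, and every p-value measures the spread among littermates. MLP was set against C to see what a low protein diet in pregnancy does to the newborn liver, and MLP-F to see how much of that persists with folic acid.

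Before a cell copies its DNA, the origin recognition complex, Cdc6 and Cdt1 load the Mcm helicase at origins, and geminin (Gmnn) blocks a further round of loading. The kinase of Cdc7 and Dbf4, with Cdc45 and the GINS complex, then turns the loaded helicase into a moving fork. At the fork, polymerase alpha and primase start each strand, the Rfc clamp loader places the Pcna ring, and polymerases delta and epsilon extend the strands, while ribonucleotide reductase and thymidylate synthase provide their substrates. The liver of a newborn rat still grows by division of hepatocytes and also holds blood-forming cells, and either kind of cell can carry these transcripts. In bulk tissue, fewer dividing cells and less RNA per cell cannot be told apart.

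All levels and differences are on a re-expanded log2 scale, which was inferred from the deposited numbers, no source having named it. If the inference holds, differences approximate log2 ratios of intensity and are too small for dim probes. Levels ran from 0.047 to 8.82, the median of all values was 0.227, and rows with a mean above 0.158 were kept. A difference passed when its adjusted p was under 0.05 in limma, a linear model fitted to all 15753 kept rows, and only such differences are written as lower, higher, fell or rose. Errors of differences are the SE of that fit. Levels of different probes were not set against each other.

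Transcription factors of the E2F family are known to act on many replication genes, and NF-Y binds the CCAAT box of many promoters of the cell cycle. RefSeq promoters (build GRCr8, from 250 bases before to 50 bases after the start in the table) were found for 39 of the 45 genes, as 40 promoters because Dut had 2, and Cdc6, Gins4, Orc1, Orc4, Rpa3 and Rrm2 had no entry. They were searched on both strands for 4 E2F words (TTTCCCGC, TTTGGCGC, TTTCGCGC and TTTGCCGC) and for CCAAT. An E2F word stood in 15 of the 40 promoters (37.5%), against 716 of all 33469 promoters in the table (2.14%), and a CCAAT box stood in 18 (45%) against 37.5% of all promoters. Among 72 promoters of the other replication, nucleotide and chaperone genes given below, 14 held an E2F word (19.4%) and 31 a CCAAT box (43.1%). Among members found lower in MLP livers below, 6 of 12 promoters (50%) held an E2F word, and among members tested and not found lower 8 of 19 did (42.1%). These shares describe letters in a window and carry no test. The 180 bases before the start are shown for the 4 members lower in MLP whose table start is also the outer end of the gene in RefSeq, with E2F words and CCAAT boxes of either strand in capitals:
Gins1 (chr3:160184740-160184919, plus strand): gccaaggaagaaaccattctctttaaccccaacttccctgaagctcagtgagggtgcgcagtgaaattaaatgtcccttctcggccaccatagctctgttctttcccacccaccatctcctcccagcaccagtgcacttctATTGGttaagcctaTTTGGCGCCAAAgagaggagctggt
Pcna (chr3:139955821-139956000, minus strand): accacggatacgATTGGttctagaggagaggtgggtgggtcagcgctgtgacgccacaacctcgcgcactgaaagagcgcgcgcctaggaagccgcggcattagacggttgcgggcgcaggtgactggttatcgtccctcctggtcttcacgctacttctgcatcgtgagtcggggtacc
Orc6 (chr19:37938857-37939036, minus strand): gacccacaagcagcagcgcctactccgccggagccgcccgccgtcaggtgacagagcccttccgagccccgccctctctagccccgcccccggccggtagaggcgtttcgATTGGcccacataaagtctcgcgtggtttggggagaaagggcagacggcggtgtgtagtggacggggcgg
Rfc4 (chr11:91254093-91254272, plus strand): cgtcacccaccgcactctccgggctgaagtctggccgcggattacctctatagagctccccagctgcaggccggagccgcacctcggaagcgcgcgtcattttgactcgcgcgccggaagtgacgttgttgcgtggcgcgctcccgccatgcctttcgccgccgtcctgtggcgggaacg
Gins1 carried 2 overlapping copies of TTTGGCGC, on opposite strands, 25 to 14 bases before the start, and a CCAAT box from 39 to 35 bases before it. Pcna and Orc6 each held a CCAAT box on the strand opposite to the gene, 168 to 164 and 70 to 66 bases before the start, and no E2F word. Rfc4 held neither. Tyms had TTTGGCGC 37 to 30 bases before its start. Counting from 1 at the start, the same word lay at bases 39 to 46 in Gmnn. On the strand opposite to the gene, it lay at bases 10 to 17 in Pole2. In Pole it ran, also on the opposite strand, from 2 bases before the start to base 6. Rpa2 had TTTGCCGC on the opposite strand at bases 8 to 15.

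The labelled tissue was checked against its markers, and the mean of the 10 hepatocyte marker rows was 5.60 to 5.88 in all 12 livers. Of these rows 9 were kept and tested, and 0 of the 9 differed between MLP and C. Against MLP-F, 1 of the 9 was higher in MLP, Cps1 of the urea cycle (by 1.40, adjusted p = 0.0195). A pair of C livers also held transcripts of other tissues. C replicate 4 had a mean of 3.92 over the skeletal muscle markers, against at most 0.502 elsewhere, and 1.87 over lung and skin markers. C replicate 1 reached 4.08 over stellate cell and fibroblast markers, against at most 2.60 elsewhere, and 1.28 over lung and skin markers. Counts are therefore given with and without these 2 livers. The mean of the 38 replication rows was 1.87 in C replicate 1 and 1.98 in C replicate 4, and 1.88 and 2.05 in the other C livers.

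In MLP livers, 15 of the 38 rows were lower than in C and 0 were higher, and 34 of 38 had a negative difference, with a median of -0.47 and a range from -1.26 to 0.16. Over all 15753 rows 2.08% were lower and 2.27% higher in the same comparison, and the median difference was 0.0037. Genes of every step fell except the flap removal and ligation pair and Chaf1b. On this scale, which makes differences of dim probes too small, the largest differences were in Pcna, Rrm2, Rfc2, Gmnn and Tyms. Against MLP-F livers, which share the 4 MLP samples with the comparison above, 13 of 38 rows were lower in MLP and 0 higher (median -0.35, lowest -1.09), where 3.05% of all rows were lower and 3.53% higher. Between MLP-F and C, 0 of 38 rows passed in limma. Differences were negative in 26 rows and positive in 12, with a median of -0.07 (-0.11 without C replicates 1 and 4). Over all rows 7532 were negative and 8221 positive, with a median of 0.0044. An unadjusted p under 0.05 in limma was met by 9 members, with a negative difference in all but Orc5, and by 14.9% of all rows. By adjusted p, 0.292% of all rows were lower and 0.19% higher. The plot of differences by step shows the 3 comparisons side by side.

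**Figure D1:**
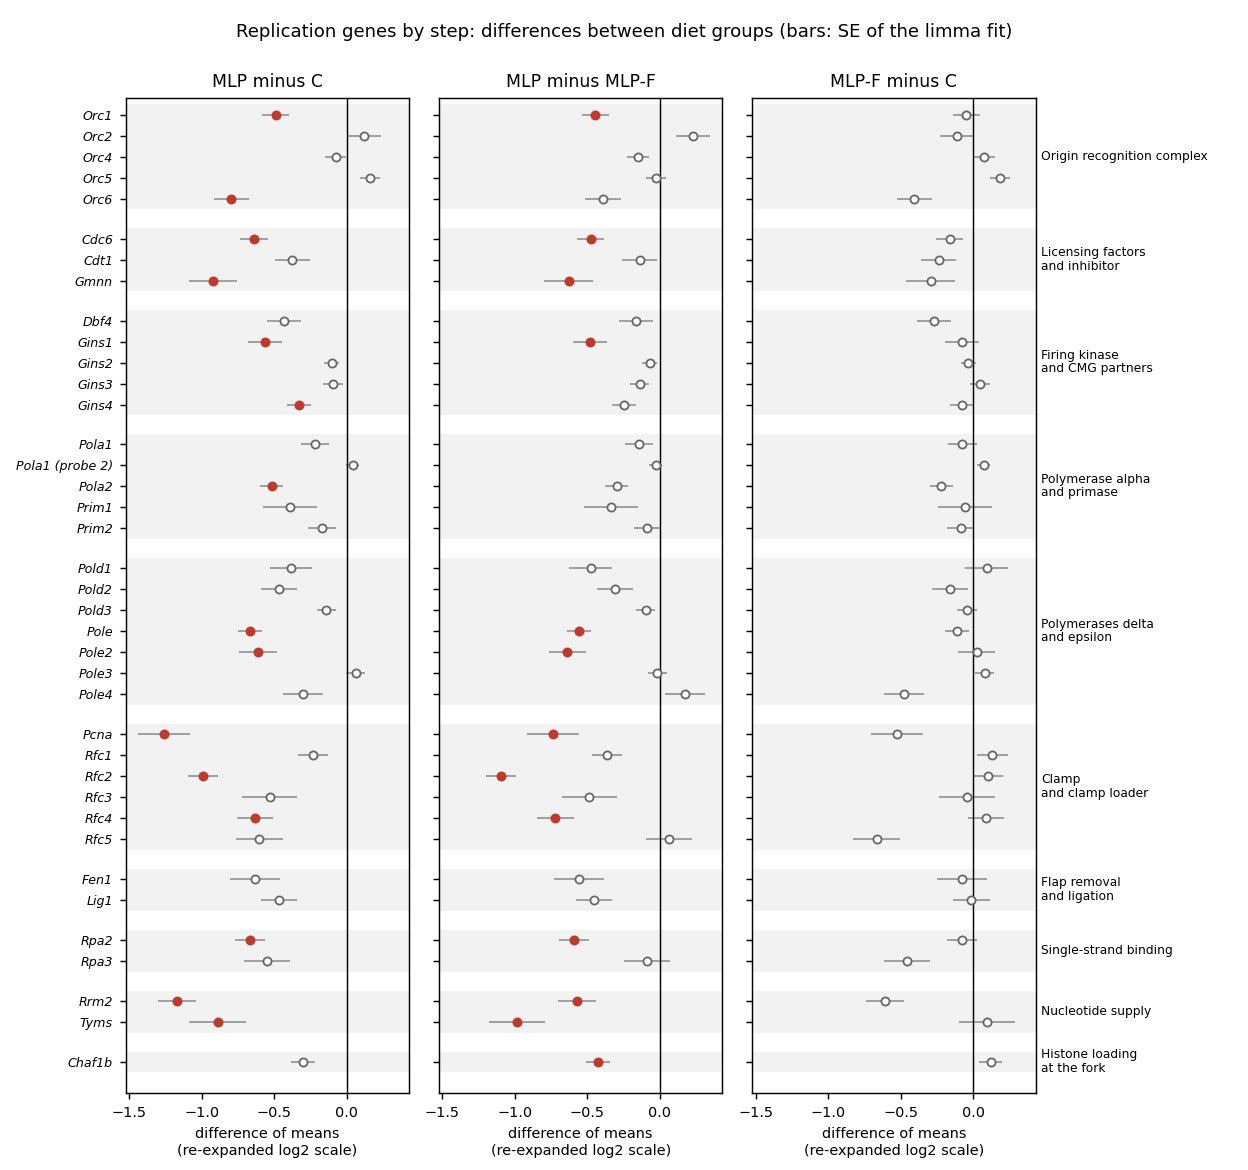
Difference of group means (horizontal axis, re-expanded log2 scale) of the 38 tested rows, grouped by replication step, for MLP minus C, MLP minus MLP-F and MLP-F minus C. Points are differences, bars the SE of the limma fit, and filled points have an adjusted p under 0.05: 15 in the left panel, 13 in the middle one and 0 in the right one, all to the left of 0.

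Without C replicates 1 and 4, the median difference between MLP and C was -0.54 and the count fell from 15 to 6 (Cdc6, Pola2, Pole, Rfc2, Rpa2 and Rrm2), while over all rows the lower calls fell from 327 to 104. The 9 members no longer called had adjusted p from 0.0501 (Pcna) to 0.0931 (Gins1). Against MLP-F the count without these livers was 12. All 4 MLP values lay below all 8 other livers in 15 of the 38 rows, against 2.44% of all rows. Of the 16 members lower in MLP in either comparison, 12 were lower in both, Orc6, Gins4 and Pola2 passed against C alone, and Chaf1b passed against MLP-F alone, and the differences between those comparisons were not tested.

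Among the subunits of the origin recognition complex, Orc6 and Orc1 were lower in MLP than in C, and Orc2, Orc4 and Orc5 did not pass. Orc6, the smallest subunit, read 2.50, 2.35, 2.48 and 2.47 in C replicates 1 to 4, 1.97, 1.38, 1.59 and 1.68 in MLP, and 1.91, 2.22, 1.84 and 2.22 in MLP-F. No MLP or MLP-F liver reached the lowest C liver. The difference was -0.80 ± 0.12 (adjusted p = 0.00670) for MLP minus C, -0.39 ± 0.12 (adjusted p = 0.0844) for MLP minus MLP-F and -0.40 ± 0.12 (adjusted p = 0.148) for MLP-F minus C. Orc1, the subunit whose level follows the cell cycle in mammals, read 1.73, 1.86, 1.76 and 1.60 in C, 1.44, 1.34, 1.08 and 1.13 in MLP, and 1.75, 1.76, 1.49 and 1.77 in MLP-F. It was lower in MLP by 0.49 ± 0.09 than in C (adjusted p = 0.0151) and by 0.44 ± 0.09 than in MLP-F (adjusted p = 0.0176), with no overlap with either group. Orc5 pointed the other way, at 0.98, 1.29, 1.08 and 1.11 in C, 1.23, 1.23, 1.24 and 1.41 in MLP, and 1.22, 1.34, 1.39 and 1.27 in MLP-F, and its groups overlapped (0.16 ± 0.07, adjusted p = 0.256). Orc2 differed by 0.12 ± 0.12 and Orc4 by -0.08 ± 0.07 between MLP and C.

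Both Cdc6, which brings the helicase to the origin, and Gmnn were lower in MLP. Cdc6 stood at 1.69, 1.77, 1.97 and 1.91 in C, 1.31, 1.16, 1.11 and 1.20 in MLP, and 1.72, 1.87, 1.40 and 1.70 in MLP-F. Every MLP liver lay below every other liver. Its difference was -0.64 ± 0.09 from C (adjusted p = 0.00595) and -0.48 ± 0.09 from MLP-F (adjusted p = 0.0135). Gmnn, the inhibitor of loading, stood at 2.51, 2.69, 3.03 and 2.99 in C, 2.07, 1.84, 1.64 and 1.98 in MLP, and 2.37, 2.71, 2.12 and 2.84 in MLP-F. Its lowest MLP-F liver was only just above the highest MLP liver, and it differed by -0.92 ± 0.17 from C (adjusted p = 0.0121) and by -0.63 ± 0.17 from MLP-F (adjusted p = 0.0476). Cdt1, the loading factor that geminin binds, overlapped between groups, at 0.80, 0.71, 1.10 and 0.93 in C, 0.77, 0.35, 0.33 and 0.60 in MLP, and 0.58, 0.68, 0.45 and 0.88 in MLP-F (-0.37 ± 0.12 from C, adjusted p = 0.120).

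Of the GINS complex, which joins the helicase to the moving fork, Gins1 and Gins4 were lower in MLP than in C. Gins1 measured 1.10, 1.01, 1.47 and 1.20 in C, 0.80, 0.79, 0.40 and 0.55 in MLP, and 1.26, 0.99, 1.03 and 1.20 in MLP-F. MLP stood apart from both groups, by -0.56 ± 0.12 from C (adjusted p = 0.0213) and -0.48 ± 0.12 from MLP-F (adjusted p = 0.0322). Gins4 measured 0.34, 0.55, 0.54 and 0.69 in C, 0.18, 0.19, 0.24 and 0.18 in MLP, and 0.39, 0.46, 0.29 and 0.66 in MLP-F. The MLP values of Gins4 were close to the level at which rows were dropped, and its difference from C, -0.33 ± 0.08, only just passed (adjusted p = 0.0489). Dbf4, the regulatory subunit of the origin-firing kinase, measured 1.24, 1.18, 1.10 and 1.26 in C, 0.85, 0.66, 0.80 and 0.75 in MLP, and 1.04, 0.95, 0.51 and 1.20 in MLP-F. Its MLP values lay below all C values, the MLP-F values spread from below MLP to the C range, and the difference from C did not pass (-0.43 ± 0.12, adjusted p = 0.0671). Gins2 and Gins3 were dim, with differences from C of -0.10 ± 0.05 and -0.09 ± 0.07.

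Polymerase alpha lays down the primers of both strands together with primase. Its accessory subunit Pola2 read 1.86, 1.93, 2.12 and 1.97 in C, 1.46, 1.51, 1.52 and 1.31 in MLP, and 1.58, 1.84, 1.67 and 1.90 in MLP-F. MLP lay lowest with no overlap and MLP-F in between, and the difference of MLP was -0.52 ± 0.08 from C (adjusted p = 0.00747) and -0.30 ± 0.08 from MLP-F (adjusted p = 0.0522). For the catalytic subunit Pola1, the brighter probe read 0.65, 0.45, 0.44 and 0.51 in C, 0.34, 0.35, 0.15 and 0.33 in MLP, and 0.45, 0.67, 0.15 and 0.49 in MLP-F (-0.22 ± 0.10 from C, adjusted p = 0.271). The dimmer probe of Pola1 differed by 0.04 ± 0.04, opposite in sign, and neither probe passed. Its mean level was 0.230, next to the median of all values (0.227), so its sign carries little weight. Prim1, the catalytic primase subunit, read 3.99, 4.03, 4.76 and 4.43 in C, 3.93, 3.83, 3.91 and 3.97 in MLP, and 4.58, 3.94, 3.96 and 4.51 in MLP-F. MLP was the tightest group for Prim1 and lay just under C, and the difference did not pass (-0.39 ± 0.19, adjusted p = 0.309), nor did that of Prim2, the large primase subunit (-0.17 ± 0.10).

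At the fork, both the catalytic subunit of polymerase epsilon (Pole) and its accessory subunit Pole2 were lower in MLP, while Pold1, Pold2 and Pold3 of polymerase delta did not pass (Pold4, outside the 45 genes, is given with the other genes). Pole read 1.89, 1.86, 2.05 and 1.97 in C, 1.40, 1.27, 1.15 and 1.28 in MLP, and 2.02, 1.79, 1.63 and 1.89 in MLP-F. The gap was wider than the spread within any group, at -0.67 ± 0.08 from C (adjusted p = 0.00274) and -0.56 ± 0.08 from MLP-F (adjusted p = 0.00351). Pole2 read 2.16, 2.32, 2.41 and 2.31 in C, 1.92, 1.64, 1.40 and 1.78 in MLP, and 2.46, 2.27, 2.00 and 2.57 in MLP-F. MLP was again below both groups, by 0.61 ± 0.13 from C (adjusted p = 0.0238) and 0.64 ± 0.13 from MLP-F (adjusted p = 0.0151). Pold2, an accessory subunit of polymerase delta, read 2.16, 2.05, 2.39 and 2.27 in C, 1.91, 1.77, 1.61 and 1.69 in MLP, and 2.05, 1.75, 2.03 and 2.40 in MLP-F. Its MLP values did not overlap with C, and the difference was -0.47 ± 0.12 (adjusted p = 0.0599). The catalytic subunit Pold1 differed by -0.38 ± 0.15 and Pold3 by -0.14 ± 0.07. The histone-fold subunits of polymerase epsilon did not pass against C either, with 0.06 ± 0.07 for Pole3 and -0.30 ± 0.14 for Pole4.

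Pcna and Rfc2 of its loader had the largest differences from C among the fork genes on this scale. Pcna, the sliding clamp that holds polymerases on DNA, read 6.17, 5.72, 6.15 and 6.19 in C, 4.94, 4.68, 4.60 and 4.97 in MLP, and 5.52, 5.66, 5.02 and 5.94 in MLP-F. The 3 groups formed an order of C, MLP-F and MLP, in which MLP-F overlapped with C and MLP overlapped with neither. The difference of MLP was -1.26 ± 0.18 from C (adjusted p = 0.00480), about 2.39-fold if the scale is read as log2, and -0.73 ± 0.18 from MLP-F (adjusted p = 0.0336), and MLP-F minus C was -0.52 ± 0.18 (adjusted p = 0.193). Rfc2, a small subunit of the loader, read 0.83, 1.17, 1.42 and 1.19 in C, 0.15, 0.22, 0.15 and 0.14 in MLP, and 1.34, 1.14, 1.17 and 1.38 in MLP-F. Its MLP values were near the level at which rows were dropped, replicate 2 above it and the others below it. The size of the difference is therefore limited by signal over background and may be too small. The differences were -0.99 ± 0.10 from C (adjusted p = 0.00124) and -1.09 ± 0.10 from MLP-F (adjusted p = 0.000376). Rfc4 read 4.66, 4.69, 4.97 and 4.92 in C, 4.33, 4.14, 3.96 and 4.29 in MLP, and 5.19, 4.73, 4.66 and 5.03 in MLP-F. It fell by 0.63 ± 0.13 from C (adjusted p = 0.0194) and by 0.72 ± 0.13 from MLP-F (adjusted p = 0.00810). Rfc5 differed by -0.60 ± 0.16 (adjusted p = 0.0613), Rfc3 by -0.53 ± 0.19 and the large subunit Rfc1 by -0.23 ± 0.10 from C, and none of these passed.

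**Figure D2:**
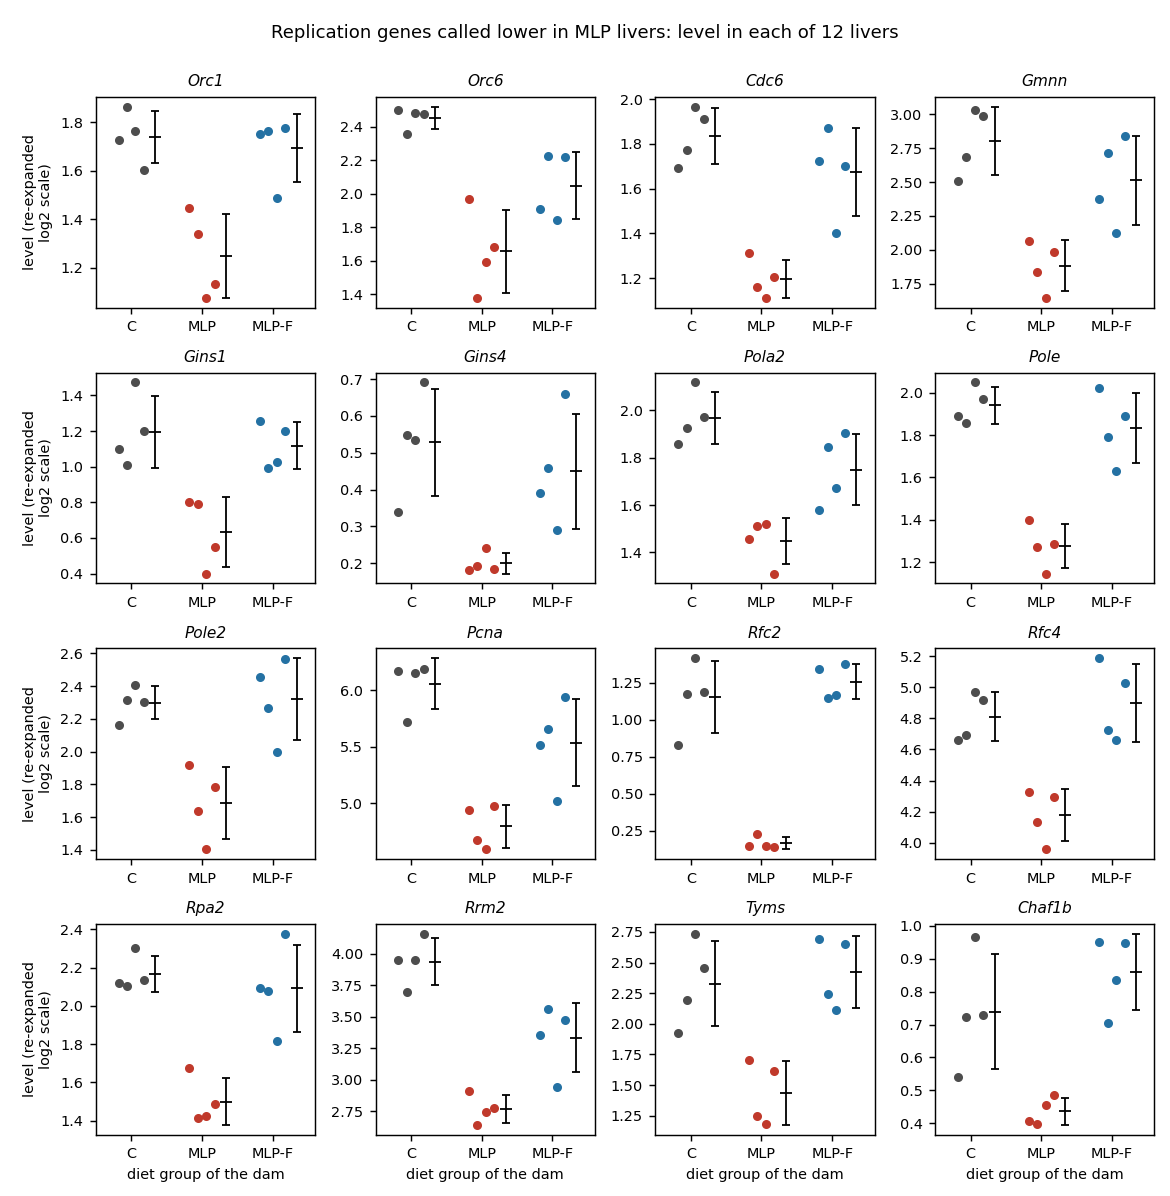
Level (vertical axis, re-expanded log2 scale, not starting at 0) of the 16 members lower in MLP livers in either comparison, 1 point per liver, with C in grey, MLP in red and MLP-F in blue and replicates 1 to 4 from left to right within a group. The mark beside each group is its mean with the SD of 4 livers, and in 15 of the 16 panels, all but Orc6, every red point lies below every other point.

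Flap removal and ligation finish the lagging strand, through the nuclease Fen1 and the ligase Lig1, and neither gene passed. Fen1 read 2.42, 2.69, 3.26 and 3.05 in C, 2.50, 2.26, 2.10 and 2.03 in MLP, and 3.00, 2.63, 2.59 and 2.90 in MLP-F, with C replicate 1 inside the MLP range. Its difference from C was -0.63 ± 0.17 (adjusted p = 0.0675). It passed without C replicate 1 (-0.78 ± 0.16, adjusted p = 0.0312), with rows kept above the 50th percentile (adjusted p = 0.0423) and with a trended prior variance (0.0432). It did not pass in 11 of the 12 fits that each left out 1 liver (up to 0.166), nor without C replicates 1 and 4 (0.0877). Lig1 read 2.66, 2.71, 2.68 and 2.25 in C, 2.31, 2.16, 1.85 and 2.12 in MLP, and 2.75, 2.45, 2.39 and 2.67 in MLP-F, with C replicate 4 apart from its littermates. The difference from C was -0.47 ± 0.13 (adjusted p = 0.0638), which passed without C replicate 4 (-0.57 ± 0.11, adjusted p = 0.0238) and with rows kept above the 50th percentile (0.0428). It did not pass in 11 of the 12 fits that each left out 1 liver (up to 0.153), nor without C replicates 1 and 4 (0.0646).

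Rpa2 and Rpa3 are the smaller subunits of the protein that coats single-stranded DNA. Rpa2 read 2.12, 2.11, 2.30 and 2.14 in C, 1.68, 1.41, 1.42 and 1.49 in MLP, and 2.09, 2.08, 1.82 and 2.38 in MLP-F. MLP lay below every other liver, by 0.67 ± 0.10 from C (adjusted p = 0.00746) and 0.59 ± 0.10 from MLP-F (adjusted p = 0.00812). Rpa3 read 2.81, 2.61, 2.90 and 2.74 in C, 2.23, 2.14, 2.38 and 2.12 in MLP, and 2.06, 2.75, 1.91 and 2.51 in MLP-F. MLP was below C without overlap and MLP-F spanned both, and the difference from C did not pass (-0.55 ± 0.16, adjusted p = 0.0807).

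For nucleotide supply, both measured members were lower in MLP in both comparisons. Rrm2, the small subunit of ribonucleotide reductase, which makes deoxynucleotides, read 3.95, 3.70, 3.95 and 4.16 in C, 2.91, 2.64, 2.74 and 2.77 in MLP, and 3.35, 3.56, 2.94 and 3.47 in MLP-F. The 3 groups did not overlap and MLP-F lay between the others. MLP was lower by 1.17 ± 0.13 than C (adjusted p = 0.00176, about 2.25-fold on the same reading) and by 0.57 ± 0.13 than MLP-F (adjusted p = 0.0267), and MLP-F minus C was -0.60 ± 0.13 (adjusted p = 0.0762). Tyms, which makes thymidylate with a folate cofactor, read 1.92, 2.20, 2.74 and 2.46 in C, 1.71, 1.25, 1.18 and 1.61 in MLP, and 2.69, 2.24, 2.11 and 2.65 in MLP-F. The C and MLP-F ranges of Tyms nearly coincided (MLP-F minus C, 0.10 ± 0.19), and MLP was lower by 0.89 ± 0.19 than C (adjusted p = 0.0268) and by 0.99 ± 0.19 than MLP-F (adjusted p = 0.0130).

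Chaf1b, a subunit of the factor that places histones on new DNA, read 0.54, 0.72, 0.97 and 0.73 in C, 0.41, 0.40, 0.45 and 0.48 in MLP, and 0.95, 0.70, 0.84 and 0.95 in MLP-F. MLP was below both groups, and the difference passed against MLP-F (-0.42 ± 0.08, adjusted p = 0.0127) and not against C (-0.30 ± 0.08, adjusted p = 0.0658).

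Several of these calls lay near the threshold and were lost when 1 liver was left out, while the differences kept their sign. Over the 12 fits that each left out 1 liver, the count against C ran from 10 to 18, and 9 of the 15 members lower than C were called in every fit (Orc6, Cdc6, Gmnn, Pola2, Pole, Pcna, Rfc2, Rpa2 and Rrm2). Orc1 lost its call without MLP replicate 4 (adjusted p = 0.0501), Gins1 without MLP replicate 3 or 4 (0.0602 and 0.0643), and Rfc4 without C replicate 3 or MLP replicate 2 or 3 (0.0508, 0.0580 and 0.0574). Pole2 lost it without any of C replicates 2 to 4 and MLP replicates 2 to 4 (adjusted p = 0.0502 to 0.0704), Tyms without C replicate 3 or 4 or MLP replicate 2, 3 or 4 (0.0512 to 0.0839), and Gins4 in 9 of the 12 fits (up to 0.118, without MLP replicate 2). Over those fits the difference ran from -0.56 to -0.43 in Orc1, -0.62 to -0.47 in Gins1, -0.68 to -0.56 in Rfc4, -0.69 to -0.52 in Pole2, -1.03 to -0.75 in Tyms and -0.39 to -0.27 in Gins4. Other members gained a call against C, Dbf4 without MLP-F replicate 3 or 4 (0.00520 and 0.0423), Pold2 without MLP-F replicate 2 or 4 (0.0278 and 0.0244), Rfc5 and Rpa3 without MLP-F replicate 2 or 3 (0.0221 to 0.0428) and Chaf1b without C replicate 1 or MLP-F replicate 2 (0.0327 and 0.0491). Leaving out an MLP-F liver moved only the estimated spread of that comparison, not the difference. Against MLP-F the count ran from 8 to 14, with 8 left without MLP replicate 3, MLP replicate 4 or MLP-F replicate 4, and 8 of the 13 were called in every fit (Cdc6, Pole, Pole2, Rfc2, Rfc4, Rpa2, Tyms and Chaf1b). Orc1 and Gins1 lost that call without MLP replicate 3 or 4 or MLP-F replicate 1 or 4 (0.0522 to 0.0539 and 0.0817 to 0.0877). Rrm2 lost it in 5 fits, without MLP replicate 2, 3 or 4 or MLP-F replicate 1 or 4 (up to 0.0782). Pcna lost it in 7, without any MLP liver or MLP-F replicate 1, 2 or 4 (up to 0.0945), and Gmnn in 9, up to 0.129 without MLP replicate 3. The differences from MLP-F then ran from -0.91 to -0.60 in Pcna and -0.76 to -0.52 in Gmnn. Calls against MLP-F were gained by Orc6 without MLP replicate 1 (0.0286) and by Pola2 without C replicate 3 or MLP-F replicate 1 (0.0429 and 0.0361), and in 1 fit or more by Dbf4, Pold1, Pold2, Fen1 and Lig1.

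The place of the MLP-F mean relative to C and MLP varied from member to member, and this variation was not tested. In Rfc2, Rfc4, Pole2, Tyms and Chaf1b the MLP-F mean was 0.02 to 0.12 above that of C, with MLP lower than MLP-F in each. Without C replicates 1 and 4, MLP-F minus C was -0.04 in Rfc2, Pole2 and Tyms, 0.01 in Chaf1b and 0.07 in Rfc4, so that 3 of these 5 signs turned, and none of these differences passed in either fit. Rfc5, Rpa3 and Pole4 read at or near the MLP level in MLP-F. Rfc5, another small subunit of the clamp loader, read 2.86, 3.02, 3.06 and 3.09 in C, 2.68, 2.53, 2.34 and 2.06 in MLP, and 2.33, 2.67, 1.90 and 2.46 in MLP-F, so that both MLP and MLP-F lay wholly below C. Its MLP-F minus C difference was -0.67 ± 0.16 (adjusted p = 0.0891) and its MLP minus MLP-F difference 0.06 ± 0.16. Pole4 read 3.11, 2.84, 2.64 and 2.97 in C, 2.52, 2.51, 2.58 and 2.74 in MLP, and 2.15, 2.82, 2.26 and 2.42 in MLP-F (MLP-F minus C, -0.48 ± 0.14, adjusted p = 0.135). In each of these, MLP-F replicate 2 was the highest of its group. When that liver was left out, 4 of 38 members were lower in MLP-F than in C, namely Pole4 (-0.61, adjusted p = 0.0120), Rrm2 (-0.68, adjusted p = 0.0185), Rfc5 (-0.78, adjusted p = 0.0207) and Rpa3 (-0.60, adjusted p = 0.0260). Calls over all rows then rose from 76 to 940 (5.97% of rows), with 522 lower and 418 higher in MLP-F. Leaving out the highest MLP-F liver, as it was in all 4, must lower the MLP-F mean. The other fits that each left out 1 liver gave 0 of 38 members.

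**Figure D3:**
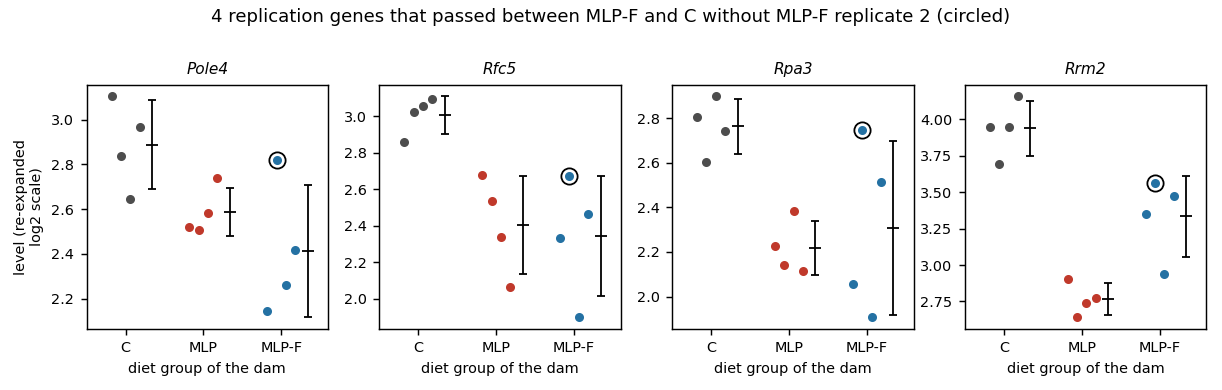
Level (vertical axis, re-expanded log2 scale, not starting at 0) of Pole4, Rfc5, Rpa3 and Rrm2 in each liver of C (grey), MLP (red) and MLP-F (blue), with the mean and the SD of 4 livers beside each group. The circled point is MLP-F replicate 2, the highest MLP-F liver in all 4 panels, without which these 4 members passed between MLP-F and C.

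Within groups, single livers were low or high over many members at once. MLP-F replicate 3 was the lowest liver of its group in 25 of the 38 rows. Over all 38 rows, it lay at or under the highest MLP liver in 18, against 6 to 12 for the other MLP-F livers. The mean of the 38 rows was 1.65 in that liver, against 1.84 to 1.96 in its littermates, 1.41 to 1.60 in MLP and 1.87 to 2.05 in C. In the MLP group replicate 1 was the highest liver in 19 rows and replicate 3 the lowest in 18, and in the C group replicate 3 was the highest in 19. The median SD of the members was 0.134 in C, 0.115 in MLP and 0.199 in MLP-F, against 0.0859, 0.0834 and 0.0976 over all kept rows. Those rows were not matched to the members by level, so the SDs do not show that the members vary more than rows of like level.

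**Figure D4:**
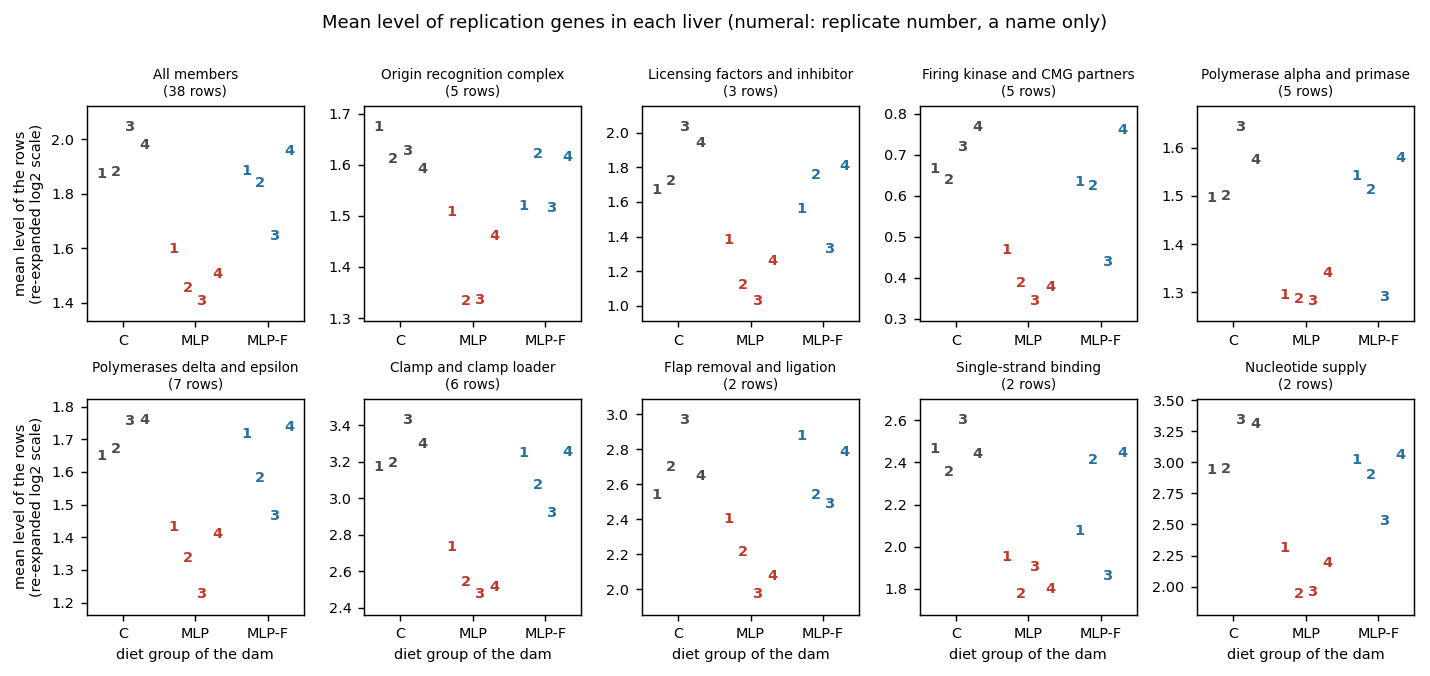
Mean level (vertical axis, re-expanded log2 scale, not starting at 0) of all 38 tested rows and of each step with at least 2 rows, in each liver of C (grey), MLP (red) and MLP-F (blue). Numerals are replicate numbers, which only name the livers, and MLP-F replicate 3 has the lowest MLP-F mean in all 10 panels.

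Markers of blood-forming cells were read beside these values. The mean of the 12 erythroid markers was 2.84 to 3.10 in C, 2.80 to 3.10 in MLP and 2.70 to 2.92 in MLP-F, and it was lowest in MLP-F replicate 3 (2.70, against 2.88 to 2.92 in its littermates). Between MLP and C, 3 of the 12 were lower (Car2, Ahsp and Tfrc, by 0.60, 0.51 and 0.44) and 2 were higher (Hbe1 by 2.44 and Alas2 by 0.34). None of the kept granulocyte, megakaryocyte or lymphoid markers passed in limma in that comparison. The mean of the 6 macrophage markers was 2.16 to 2.61 in MLP and 2.04 to 2.21 in C, and C1qc was higher in MLP (by 0.51, adjusted p = 0.0301). Against MLP-F, 2 of the 12 erythroid markers were lower in MLP (Car2 by 0.66 and Ahsp by 0.46) and 2 were higher (Hbe1 by 3.28 and Alas2 by 0.33). In that comparison MLP livers were also higher in the macrophage markers C1qb and C1qc (by 0.60 and 0.75), the granulocyte marker Ngp (by 0.95) and the endothelial marker Lyve1 (by 0.53). The part of these cells in the lower replication transcripts was not tested.

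Other genes of the same processes, taken from lists of 74 genes, were on 49 kept rows, and 10 were lower and 1 higher in MLP than in C (median -0.13), where all rows had the shares given above. Against MLP-F 8 were lower, and 1, Gmps of GMP synthesis, was higher (0.31 ± 0.08, adjusted p = 0.0355). The Gmps call was lost in 6 of the 12 fits that each left out 1 liver (adjusted p up to 0.0884) and with a trended prior variance (0.113). Without C replicates 1 and 4, 4 were lower than C (Donson, Mcm10, Rnaseh2a and Prps2) and 0 higher. Of the replisome and origin genes, 4 of 17 rows were lower. They were Donson, a fork protection factor (-0.77 ± 0.12, adjusted p = 0.00666), Timeless of the fork protection complex (-0.60 ± 0.09, adjusted p = 0.00670), Mcm10, which joins the helicase to polymerase alpha (-0.49 ± 0.08, adjusted p = 0.00670), and Rnaseh2a, which removes ribonucleotides from DNA (-0.38 ± 0.08, adjusted p = 0.0207). The row that was higher, chosen for mention after its value was seen, was Pold4, the smallest subunit of polymerase delta (0.48 ± 0.11, adjusted p = 0.0339), and its call was lost without any single C or MLP liver (adjusted p = 0.0559 to 0.0885). Of the nucleotide enzymes, 3 of 22 rows were lower. They were Prps2, which makes the sugar phosphate of all nucleotides (-0.65 ± 0.09, adjusted p = 0.00454), Adss2 of AMP synthesis (-0.62 ± 0.11, adjusted p = 0.0110) and Dctd, a deaminase that feeds thymidylate synthase (-0.37 ± 0.07, adjusted p = 0.0192). The MLP mean of Dctd, 0.126, lay under the level at which rows were dropped, and its C mean was 0.494. Of the histone chaperones, 3 of 10 rows were lower, namely the histone acetyltransferase Hat1 (-0.83 ± 0.16, adjusted p = 0.0136) and the chaperones Asf1b (-0.57 ± 0.11, adjusted p = 0.0202) and Nasp (-0.59 ± 0.12, adjusted p = 0.0206). Leaving out 1 liver ended the call of Rnaseh2a without C replicate 2 or MLP replicate 1, 2 or 4 (adjusted p = 0.0501 to 0.0621), of Dctd without C replicate 1 or 3 or MLP replicate 2 or 3 (0.0502 to 0.0558), of Nasp without C replicate 3 or 4 or MLP replicate 1, 2 or 3 (0.0527 to 0.0594), and of Asf1b without MLP replicate 2 or 3 (0.0605 and 0.0633). Donson, Timeless, Mcm10, Prps2, Adss2 and Hat1 were called in all 12 fits.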

How the data were processed

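Expression was measured on Illumina RatRef-12 BeadChips in 12 livers, 4 per group, with groups taken from the sample titles. Per the study's methods, the authors analysed the raw data with beadarray and limma and used quantile normalization, and a legend speaks of low quality probes having been filtered. The rule of that filter, the software versions and any correction for background were not given in the sources used here. As deposited, the values are log2 values from 4.00 to 4.63, all just above log2 of 16. Each was raised as a power of 2 and reduced by 16, a reading that rests on the values alone. A further deposited table of log2 intensities has 12 columns named by chip position, which fit no sample's labels and were left out. The number of arrays limits the precision, and the values used name no scan batch.

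The 15753 of 22505 rows whose mean exceeded the 30th percentile were kept. Symbols came from the platform annotation and were updated through Entrez identifiers with a RefSeq table of GRCr8, and 13778 rows had 1 symbol and 8727 had none. A linear model with group as its only term (limma 3.58.1, R 4.3.3, lmFit, contrasts.fit and eBayes) was fitted to all 12 samples, giving 3 two-sided contrasts with 9 residual and 2.26 prior degrees of freedom. The Benjamini-Hochberg adjustment ran over all 15753 rows, and every adjusted p in the text is from limma. The model was tested on simulated data. The members and the lists of other genes and markers were chosen with earlier results of these data known. Of each step, up to 3 genes with the smallest p between MLP and C are given liver by liver, Pola1 by its brighter probe, and of each list of other genes up to 4 called rows with the smallest p are named. Rfc5, Pole4, Pold4, Gmps and the markers named by their own values were added after their values were seen. Alternatives were the deposited scale, other filters, repeated quantile normalization, a trended prior variance, each pair of groups alone, a replicate block, a stricter threshold and leaving out livers.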

Additional observations from a re-analysis of the deposited data

Results flagged for a closer look

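Of 114 groups of 4 livers examined (38 rows, 3 groups), 9 held a liver whose gap to the nearest littermate took up most of the group's range, a gap that chance gives in about 1 of 20 groups. In MLP-F, Orc1 was 1.49 in replicate 3, against 1.75 to 1.77 in the others. In MLP replicate 4, Orc4 was 1.90 (others 1.77 to 1.79) and Orc5 was 1.41 (others 1.23 to 1.24), both among the members that did not pass. In MLP replicate 3 the brighter probe of Pola1 was 0.146 (others 0.332 to 0.354), and in MLP replicate 2 Rfc2 was 0.224 (others 0.136 to 0.148). In C, the dimmer probe of Pola1 was 0.131 in replicate 3 (others 0.211 to 0.213), Pcna was 5.72 in replicate 2 (others 6.15 to 6.19), Lig1 was 2.25 in replicate 4 (others 2.66 to 2.71) and Rpa2 was 2.30 in replicate 3 (others 2.11 to 2.14). Of these, Lig1 changed its call when the liver was left out, as given above, and Pcna, Rfc2 and Rpa2 were called lower than in C in all 12 fits that each left out 1 liver.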

How the results depend on the processing

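No tested alternative turned a count of members from lower to higher. For MLP against C, 15 members were lower, and the count was 8 at an adjusted p under 0.01 and 6 without C replicates 1 and 4. Leaving out 1 liver at a time gave 10 to 18, and the deposited scale, other filters, repeated quantile normalization, a trended prior and the pair of groups alone gave 14 to 20. For MLP against MLP-F, 13 were lower, with 4 at 0.01, 8 to 14 over fits that left out 1 liver and 10 to 16 under the other settings. For MLP-F against C the count was 0 in limma and stayed 0 under all settings but fits without a liver, which gave 0 to 4, the 4 arising without MLP-F replicate 2.

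Same-numbered livers did not deviate together (r from -0.217 to 0.143, with 1 of 12 pairs above 0.1, and 6 of 24 best matches to the own number). The replicate numbers share no source in the labels, and with the replicate block the counts were 13, 11 and 0.

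Over all rows, 685 were called between MLP and C and 76 between MLP-F and C. The former was 211 without C replicates 1 and 4 and 335 to 814 over fits that left out 1 liver. The latter was 6 with the pair of groups alone, 29 with the replicate block, 43 with a trended prior, 37 with no filter and 1 to 940 without 1 liver. The 1037 calls between MLP and MLP-F ranged from 619 to 1355 without 1 liver. The cause of these shifts was not tested. Rows near the filter level, such as Rfc2, Gins4, Gins2 and Dctd in MLP livers, are limited by signal over background.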
